A study of Mus musculus with 6 samples.

Results

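The apolipoprotein genes described here are Apoa1, Apoa2, Apoa4, Apoa5, Apob, Apoc1, Apoc2, Apoc3, Apoe and Apoh. They were taken by symbol from the gene tables of each library, and 10 of the 34745 genes in those tables are members. All 6 libraries were made from primary hepatocytes of male mice aged 12 weeks that carried floxed Foxa2 alleles and received CCl4, a solvent that injures the liver and causes fibrosis when it is given repeatedly. FOXA2f/f mice (n = 3 libraries) had received the virus AAV8-TBG-Control, and FOXA2H-KO mice (n = 3 libraries) AAV8-TBG-Cre, in which the TBG promoter limits the recombinase Cre to hepatocytes. Virus was given 2 weeks ahead of CCl4, which followed for 4 weeks in doses of 0.25 ml/kg, 2 a week, and cells were collected on day 3 after the last dose. No group without CCl4 was analysed here, so every difference below is between injured livers with and without hepatocyte Foxa2. The labels do not say that the libraries of a group came from separate animals, and p-values then measure only the spread between these libraries.

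Apolipoproteins are the protein part of lipoproteins, the particles in which blood carries triglyceride and cholesterol, and the liver makes most of them. ApoB is the scaffold of very-low-density lipoprotein (VLDL), ApoA-I and ApoA-II are the main proteins of high-density lipoprotein (HDL), ApoE binds the receptors that clear particles, and the C proteins and ApoA-V set how fast lipoprotein lipase unloads triglyceride. FOXA2 is a forkhead transcription factor of the liver, and the comparison asks what its loss does to hepatocyte gene expression in fibrosis.

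The libraries held between 20983455 and 28327765 counted fragments. Foxa2, the deleted gene, was at 19.0, 13.5 and 16.4 CPM (counts scaled to the library total, here adjusted by edgeR's TMM method) in FOXA2f/f replicates 1, 2 and 4 and at 1.03, 0.762 and 1.62 CPM in FOXA2H-KO replicates 1, 2 and 4. It fell by 3.85 on the log2 scale (standard error 0.31), and edgeR's quasi-likelihood test gave an adjusted p of 0.0313 (Benjamini-Hochberg). In this test the adjusted p was 0.034 without FOXA2f/f replicate 2 and between 0.0624 and 0.499 without each of the other libraries in turn. The log2 fold change stayed between −4.17 and −3.63 in these fits. The adjusted p of Foxa2 was 4.11e-29 with DESeq2 and 5.20e-24 with edgeR's exact test. It was 0.124 in the quasi-likelihood test with scaling by total count and 0.0536 with the replicate number as a block. With limma it was 0.0958 on log2(FPKM + 1) and 0.115 on log2(FPKM + 0.1). Alb, which encodes albumin, took between 9.38% and 11.02% of all counts in every library. Markers of other liver cells were present too. The 10 macrophage markers summed to between 581 and 2609 CPM in FOXA2f/f and between 1301 and 1881 CPM in FOXA2H-KO libraries, and the 10 stellate cell markers to between 1084 and 2781 CPM and between 1617 and 2648 CPM. Neutrophil markers summed to 98.9, 6.47 and 50.6 CPM in FOXA2f/f replicates 1, 2 and 4 and to 8.72, 14.8 and 7.31 CPM in FOXA2H-KO replicates 1, 2 and 4, so that the lowest sum was in FOXA2f/f. Cholangiocyte markers summed to between 174 and 368 CPM in FOXA2f/f and between 253 and 709 CPM in FOXA2H-KO libraries, and lymphocyte markers to at most 5.75 CPM in any library. The fitted value was above 0 for 9 of 10 macrophage, 9 of 10 stellate cell and 6 of 6 cholangiocyte markers tested and below 0 for 6 of 6 neutrophil markers. Of 10 endothelial markers it was above 0 for 4 and below 0 for 6, and of all genes above 0 for 47.8%. It was below 0 for 9 of 10 hepatocyte markers, but for 4 of 10 with scaling by total count. In edgeR's quasi-likelihood test the unadjusted p was under 0.05 for 2 cholangiocyte markers, both higher, and 5 neutrophil markers, all lower. The adjusted p was under 0.05 for 0 of all these genes. Of all genes, 1.98% were higher and 3.18% lower at that unadjusted p. Groups did not overlap for 2 cholangiocyte markers, both higher, and for 1 neutrophil, 1 stellate cell and 1 hepatocyte marker, all lower. The shares of all genes were 4.54% higher and 5.96% lower. The 5 enterocyte markers summed to at most 62.7 CPM in any library, and Alpi and Sis were at 0 in all 6. Of the 2 enterocyte markers tested, 1 was higher and 1 lower in FOXA2H-KO. The higher one had an unadjusted p under 0.05 in edgeR's quasi-likelihood test and no overlap between the groups, and 0 had an adjusted p under 0.05. The intestine also makes ApoB, ApoA-I and ApoA-IV, and a part of intestinal RNA in these genes was not tested.

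The members lie at 5 places in the genome, 2 of them clusters (GRCm38, GENCODE M21). On chromosome 9, Apoa1 (46228580 to 46230466, plus strand), Apoc3 (46232933 to 46235636, minus strand), Apoa4 (46240696 to 46243459, plus strand) and Apoa5 (46268633 to 46271919, plus strand) share 43340 bases. On chromosome 7, Apoc2 (19671579 to 19677941), Apoc1 (19689481 to 19692660) and Apoe (19696109 to 19699188) lie within 27610 bases, all on the minus strand. Apoa2 is on chromosome 1 (171225054 to 171226379), Apoh on chromosome 11 (108343354 to 108414396) and Apob on chromosome 12 (7977648 to 8016835), each on the plus strand.

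Because FOXA2 is the factor removed, the promoters were searched for letters that forkhead factors of the FOXA class are known to bind, on both strands. These were TGTTTAC with its relatives written as TGTTTGC and, from the same class of site, TATTTAC. RefSeq promoters (GRCm38.p6, 250 bases before the start of transcription to 50 after it) were given for 8 of the 10 members, in 12 entries. At least 1 match was found for 6 of these 8 members, and in 7 of 12 entries (58.3%), against 11.2% of all 32851 promoters of that length. The motifs were found in 3.65% (TGTTTAC), 5.07% (TGTTTGC) and 3.04% (TATTTAC) of all promoters. The 4 sequences below are the 250 bases before the start, written 5′ to 3′ on the strand of the gene, with the matches in capitals. Apoh and Apoa2 are shown as the members with the lowest fitted log2 fold changes, and Apoa1 and Apob as abundant members of HDL and VLDL.
Apoh, chr11:108395047-108395296, plus strand: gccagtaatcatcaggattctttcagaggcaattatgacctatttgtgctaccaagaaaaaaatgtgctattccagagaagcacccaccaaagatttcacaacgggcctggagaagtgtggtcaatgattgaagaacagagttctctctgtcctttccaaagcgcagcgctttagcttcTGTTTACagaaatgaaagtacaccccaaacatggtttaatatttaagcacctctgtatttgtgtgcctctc
Apoa2, chr1:171224804-171225053, plus strand: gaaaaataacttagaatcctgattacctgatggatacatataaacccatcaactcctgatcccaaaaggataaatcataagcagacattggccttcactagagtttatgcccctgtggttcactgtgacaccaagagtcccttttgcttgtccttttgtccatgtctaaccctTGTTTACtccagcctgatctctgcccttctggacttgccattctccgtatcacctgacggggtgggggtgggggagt
Apoa1, chr9:46228380-46228629, plus strand: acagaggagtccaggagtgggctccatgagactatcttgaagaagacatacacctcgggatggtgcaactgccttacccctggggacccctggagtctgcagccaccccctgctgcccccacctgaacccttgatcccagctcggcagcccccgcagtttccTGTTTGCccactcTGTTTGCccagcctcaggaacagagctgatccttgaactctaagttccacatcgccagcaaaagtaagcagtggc
Apob, chr12:7977427-7977676, plus strand: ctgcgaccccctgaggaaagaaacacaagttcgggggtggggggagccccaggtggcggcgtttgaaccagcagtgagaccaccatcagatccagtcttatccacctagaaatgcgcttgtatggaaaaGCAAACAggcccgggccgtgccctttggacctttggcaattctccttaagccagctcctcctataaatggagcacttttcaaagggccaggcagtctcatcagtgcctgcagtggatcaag
The match in Apoh begins 71 bases before the start and that in Apoa2 77 bases before it, both with the letters TGTTTAC, while the other of the 2 Apoa2 entries, at a start further upstream, held none. Apoa1 holds TGTTTGC 2 times, from 88 and from 75 bases before the start, and Apob holds it once on the opposite strand, which reads GCAAACA here. Apoa5 also held TGTTTGC, as 1 match that lies in both of its overlapping entries and is counted in each, and 1 of the 3 Apoe promoters held TGTTTAC on the opposite strand. No match was present in the Apoa4 and Apoc2 windows. A match is a run of letters and not a measured binding site. Promoters of other liver genes were not compared separately, so whether the matches are particular to these members was not tested.

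All 10 members were abundant in these cells and all were tested. By mean CPM over the 6 libraries they ranked between 3 (Apoe) and 240 (Apoa4) of the 14417 genes tested, and 6 of them were among the 100 highest. Of the 10 members, 0 were called at an adjusted p under 0.05 with a fold change of at least 2, beside 1 gene called among all 14417 tested (0.00694%), which was Foxa2. In edgeR's quasi-likelihood test the members had adjusted p-values between 0.915 and 1. Only Apoh had an unadjusted p under 0.05 in that test, as did 5.17% of all genes tested (1.98% higher and 3.18% lower), and DESeq2 and edgeR's exact test also called 0 members. The fitted value was above 0 for 4 members and below 0 for 6, and it was above 0 for 47.8% and below 0 for 52.2% of all genes, but with the libraries scaled by total count alone it was above 0 for 8 members and below 0 for 2. The median log2 fold change was −0.05 over the members and −0.01 over all genes. In bulk RNA, fewer cells of a type and less RNA per cell cannot be told apart.

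**Figure D1:**
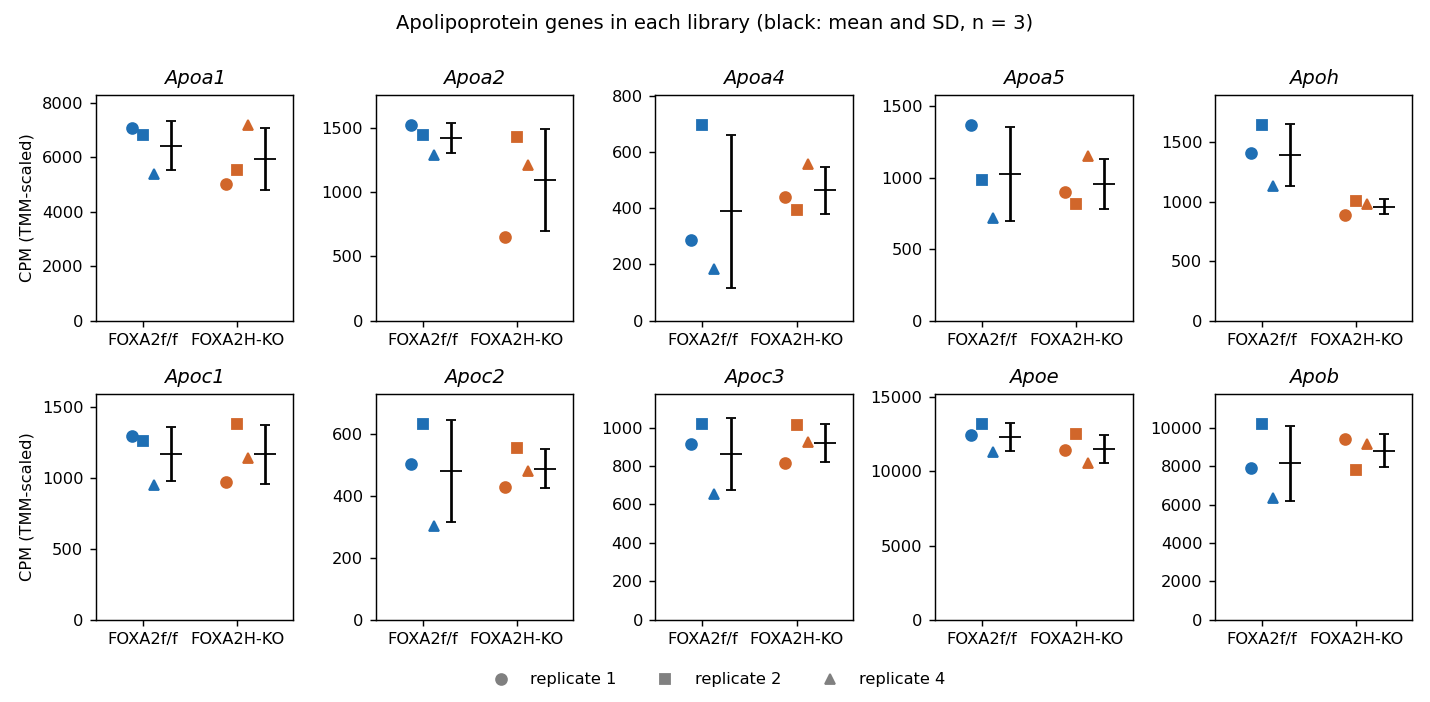
CPM of each apolipoprotein gene (y axis, linear, from 0) in FOXA2f/f and FOXA2H-KO libraries, with symbols for the replicate and black bars for the mean and SD (n = 3). Only for Apoh do the 3 FOXA2H-KO libraries (891 to 1007 CPM) all lie below the 3 FOXA2f/f libraries (1129 to 1650 CPM).

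Apob encodes the protein that every VLDL particle is built around. It was at 7903, 10230 and 6340 CPM in FOXA2f/f replicates 1, 2 and 4 and at 9424, 7831 and 9188 CPM in FOXA2H-KO replicates 1, 2 and 4. The FOXA2H-KO values all lay inside the FOXA2f/f range, and the group means of 8158 ± 1958 and 8814 ± 860 CPM (SD, n = 3) differed by less than the spread within either group. The log2 fold change was 0.11 (standard error 0.29, 95% interval from −0.56 to 0.78), and it was −0.04 without FOXA2f/f replicate 4 and 0.31 without FOXA2f/f replicate 2. Apoe, whose protein carries remnant particles to their receptors, was at 12444, 13203 and 11317 CPM in FOXA2f/f and at 11444, 12492 and 10560 CPM in FOXA2H-KO libraries, in the same replicate order. Its groups overlapped, and its log2 fold change was −0.10 (standard error 0.27, 95% interval from −0.73 to 0.53).

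Among the HDL proteins, Apoa1, which activates the cholesterol-esterifying enzyme LCAT, was at 7058, 6827 and 5387 CPM in FOXA2f/f and at 5031, 5544 and 7196 CPM in FOXA2H-KO libraries. The highest and the lowest value of the 6 both came from FOXA2H-KO, and the log2 fold change was −0.12 (standard error 0.27, 95% interval from −0.74 to 0.51). Apoa2, another main protein of HDL, was at 1524, 1443 and 1290 CPM in FOXA2f/f and at 652, 1423 and 1207 CPM in FOXA2H-KO libraries. FOXA2H-KO replicate 1 stood apart from the other 5 libraries, which lay between 1207 and 1524 CPM. The log2 fold change of Apoa2 was −0.38 (standard error 0.30, 95% interval from −1.06 to 0.31), and it was −0.11 without FOXA2H-KO replicate 1 and −0.61 without FOXA2H-KO replicate 2.

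Apoa4, an exchangeable apolipoprotein of HDL and triglyceride-rich particles, varied most between FOXA2f/f replicates, with a coefficient of variation of 70.1%, while in FOXA2H-KO (18.2%) Apoa2 varied most (36.4%). It was at 286, 698 and 182 CPM in FOXA2f/f and at 441, 392 and 556 CPM in FOXA2H-KO libraries, so that FOXA2f/f replicates 2 and 4 were the highest and the lowest of all 6. The means were 389 ± 273 and 463 ± 84.1 CPM (SD, n = 3) and the log2 fold change 0.25 (standard error 0.45, 95% interval from −0.80 to 1.30). It was 0.99 without FOXA2f/f replicate 2 and −0.09 without FOXA2f/f replicate 4. Without FOXA2f/f replicate 2, edgeR's quasi-likelihood test gave Apoa4 an unadjusted p of 0.00542 and an adjusted p of 0.419. In GENCODE M21, 69.8% of the exon bases of Apoa4 are shared with genes on the opposite strand. Of these, Gm10680 (34.8% of the exon bases) had 0 counts in all 6 libraries and Gm47528 was not listed in the count tables, and whether the counting used strand was not given in the sources used here.

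The 4 genes that act on lipolysis and uptake of particles overlapped between the groups. Apoa5, whose protein promotes lipolysis, was at 1372, 987 and 717 CPM in FOXA2f/f and at 899, 814 and 1149 CPM in FOXA2H-KO libraries (log2 fold change −0.10, standard error 0.27, 95% interval from −0.74 to 0.54). Its FOXA2H-KO values all lay between the lowest and the highest FOXA2f/f values. Apoc2 encodes the obligate activator of lipoprotein lipase and was at 504, 633 and 304 CPM in FOXA2f/f and at 429, 553 and 480 CPM in FOXA2H-KO libraries. Its log2 fold change was 0.02 (standard error 0.27, 95% interval from −0.61 to 0.65), and 79.5% of its exon bases are shared with a read-through gene of GENCODE M21, Gm44805, which the count tables did not list. Apoc3, whose protein inhibits lipolysis and particle uptake, was at 914, 1020 and 654 CPM in FOXA2f/f and at 817, 1013 and 926 CPM in FOXA2H-KO libraries (log2 fold change 0.09, standard error 0.22, 95% interval from −0.42 to 0.60). Apoc1, another inhibitor of uptake, was at 1294, 1264 and 951 CPM in FOXA2f/f and at 972, 1384 and 1144 CPM in FOXA2H-KO libraries. Its means were 1170 ± 190 and 1167 ± 207 CPM (SD, n = 3), with a 95% interval of the log2 fold change from −0.52 to 0.51. For each of these genes FOXA2f/f replicate 4 was the lowest of the 6 libraries.

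Apoh encodes beta-2-glycoprotein I, a plasma protein that binds anionic phospholipids. It was at 1406, 1650 and 1129 CPM in FOXA2f/f replicates 1, 2 and 4 and at 891, 1007 and 979 CPM in FOXA2H-KO replicates 1, 2 and 4. Every FOXA2H-KO library was below every FOXA2f/f library, with means of 959 ± 60.6 and 1395 ± 261 CPM (SD, n = 3). An exact permutation test, two-sided, gave p = 0.1, which is as low as 3 against 3 can go. Groups did not overlap for 1 of the 10 members and for 10.5% of all genes, with 4.54% of all genes higher and 5.96% lower in FOXA2H-KO in this way, so 1 of 10 is near the background. The log2 fold change of Apoh was −0.54 (standard error 0.21, 95% interval from −1.02 to −0.06). Its unadjusted p was 0.0315 and its adjusted p 0.915 in edgeR's quasi-likelihood test, so the difference did not pass the correction over all genes. It was −0.67 without FOXA2f/f replicate 4, the lowest FOXA2f/f library, and −0.40 without FOXA2f/f replicate 2, the highest. With any library other than FOXA2f/f replicate 4 left out, its unadjusted p in this edgeR test lay between 0.0705 and 0.0976, and with the replicate number as a block it was 0.0714. The log2 fold change was below 0 in all 15 alternative fits, in which the smallest adjusted p of any member was 0.214 (edgeR's quasi-likelihood test for Apoh without FOXA2f/f replicate 4).

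The intervals state how large a difference these libraries leave possible. For 7 members, all but Apoa2, Apoa4 and Apoh, the 95% interval lay within a 2-fold difference in either direction. For Apoa2 and Apoh the lower end passed a 2-fold decrease, and for Apoa4 the upper end passed a 2-fold increase. For 9 members the interval held 0.

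**Figure D2:**
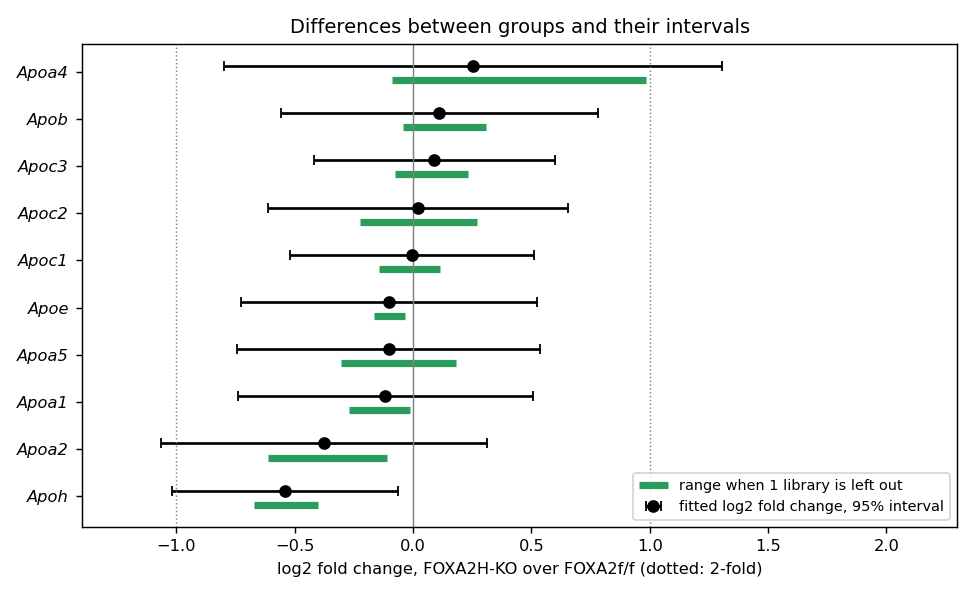
Log2 fold change of FOXA2H-KO over FOXA2f/f for each member (x axis) with its 95% interval in black and, in green, the range of the fitted value when 1 library was left out in turn. Dotted lines mark a 2-fold difference, only the interval of Apoh (−1.02 to −0.06) does not hold 0, and the green range is widest for Apoa4 (−0.09 to 0.99).

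FOXA2f/f replicate 4 was the lowest of the 3 FOXA2f/f libraries for all 10 members, as for 40.9% of all genes tested, and FOXA2f/f replicate 2 the highest for 6 members, as for 39.1% of all genes. By share of all counts in place of TMM-scaled CPM, FOXA2f/f replicate 4 was the lowest for 7 members and for 14.8% of all genes. On TMM-scaled CPM this was not particular to the members. The 10 hepatocyte markers summed to 163068, 170313 and 126872 CPM in FOXA2f/f replicates 1, 2 and 4. In FOXA2H-KO replicates 1, 2 and 4 their sums were 118431, 144279 and 152521 CPM. The sum of each pathway list below was also lowest in replicate 4 among the FOXA2f/f libraries. Scaled by total count, this held for the hepatocyte markers (140917 CPM) but for none of the pathway lists. With each member set against its own mean over the 6 libraries on the log2 CPM scale, the median member was at 0.13, 0.23 and −0.34 in FOXA2f/f replicates 1, 2 and 4 and at −0.12, 0.04 and 0.05 in FOXA2H-KO replicates 1, 2 and 4. The median over all 8295 genes of at least 10 CPM stayed between −0.06 and 0.09 in the same libraries. Without FOXA2f/f replicate 4, all 10 fitted values were below 0, with a median of −0.19, and without FOXA2f/f replicate 1 the median was 0.08. The same replicate 4 had the highest macrophage (2609 CPM), stellate cell (2781 CPM) and endothelial (787 CPM) marker sums of the 6, and FOXA2f/f replicate 2 the lowest (581 CPM, 1084 CPM and 223 CPM). The cholangiocyte and neutrophil sums of FOXA2f/f replicate 4 were not the highest, at 231 and 50.6 CPM against 709 CPM in FOXA2H-KO replicate 1 and 98.9 CPM in FOXA2f/f replicate 1. FOXA2H-KO replicate 1, where Apoa2 was low, had the second highest macrophage and stellate cell sums, 1881 and 2648 CPM, and the second lowest endothelial sum, 387 CPM. The part of these cells in the differences between libraries was not tested.

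**Figure D3:**
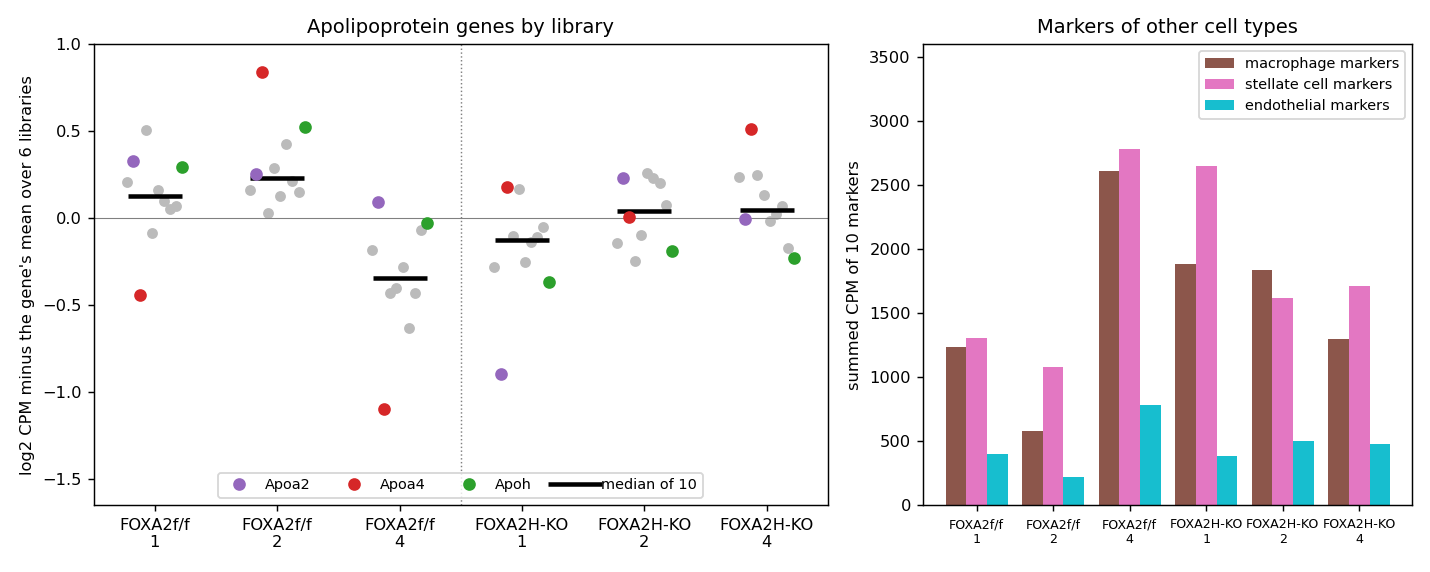
Left, log2 CPM of each member minus its own mean over the 6 libraries (points, with Apoa2, Apoa4 and Apoh in color and a black bar for the median of the 10 members), and right, summed CPM of 10 markers each of macrophages, stellate cells and endothelial cells. The median member is lowest in FOXA2f/f replicate 4 (−0.34), the library with the highest sum of each of these 3 marker lists.

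The scaling of libraries moved the members as a group. The 10 genes together took 3.16%, 3.299% and 3.14% of all counts in FOXA2f/f replicates 1, 2 and 4 and 3.48%, 3.303% and 3.31% in FOXA2H-KO replicates 1, 2 and 4. On this scale all FOXA2H-KO libraries were above all FOXA2f/f libraries, 3.37% ± 0.1004 against 3.20% ± 0.0874 (SD, n = 3), with replicates 2 of the groups nearly equal. Summed TMM-scaled CPM did not keep that order, with 34706, 37956 and 28270 CPM in FOXA2f/f and 30999, 32454 and 33385 CPM in FOXA2H-KO libraries. With scaling by total count, the median log2 fold change was 0.10 over all genes and 0.08 over the members. By share of all counts, Apoc3 was higher and Apoh lower in every FOXA2H-KO library, as were 8.28% and 3.24% of all genes.

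Within the counts of the 10 members no scaling between libraries enters. Apoe took 36.9% ± 2.77 of them in FOXA2f/f and 35.7% ± 3.59 in FOXA2H-KO, Apob 24.0% ± 2.52 and 27.4% ± 3.14, and Apoa1 19.1% ± 1.18 and 18.3% ± 2.86 (SD, n = 3). Apoh took 4.05%, 4.35% and 3.99% in FOXA2f/f and 2.88%, 3.10% and 2.93% in FOXA2H-KO libraries, and was the only member whose share did not overlap between the groups. This uses the same counts as the CPM values, on which 1 of 10 members and 10.5% of all genes did not overlap. The ratio of Apoh to Apob counts was 0.178, 0.161 and 0.178 in FOXA2f/f and 0.0946, 0.129 and 0.107 in FOXA2H-KO libraries. Of 8 such ratios between members it was the only one without overlap. Apoh was in no other of the 8, so this ratio is not separate from the Apoh result above. The exact two-sided permutation test gave it p = 0.1, and p = 0.6 after adjustment over the 8 ratios. With 3 against 3 libraries the exact permutation test cannot go below p = 0.1, so it could not decide for any ratio. Apob over Apoa1, the scaffold of VLDL over that of HDL, was 1.27 ± 0.204 in FOXA2f/f and 1.52 ± 0.313 in FOXA2H-KO (SD, n = 3) and overlapped.

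**Figure D4:**
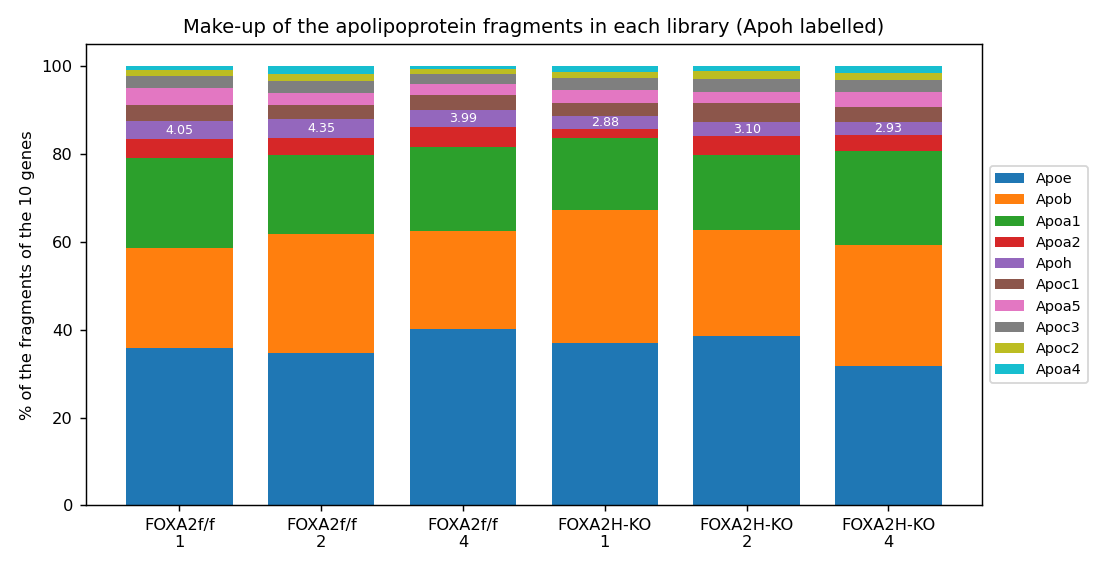
Share of the fragments of the 10 genes taken by each gene (y axis, percent) in each library, as stacked bars that sum to 100%. The labelled band of Apoh is between 3.99% and 4.35% in FOXA2f/f and between 2.88% and 3.10% in FOXA2H-KO libraries, while Apoe, Apob and Apoa1 make up most of every bar.

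To compare levels between genes, CPM was divided by gene length in kilobases (merged exons of GENCODE M21). The order of mean levels over the 6 libraries was Apoe (5571 CPM per kilobase), Apoa1 (4995), Apoa2 (2340), Apoc1 (1570), Apoc3 (878), Apoh (739), Apob (609), Apoc2 (595), Apoa5 (392) and Apoa4 (235). Of the 9 pairs of neighbors in this order, only Apoa1 and Apoa2, and Apoc1 and Apoc3, had ranges over the 6 libraries that did not overlap. Apob, with 13934 exon bases, was 1 of the 3 highest members by CPM but 7 of 10 in this order. The order depends on the length used. The FPKM values deposited by the authors imply 5592 bases for Apoe and 1539 for Apoa2, whose merged exons hold 2138 and 537 bases and whose whole genes span 3080 and 1326 bases. Over 10660 genes the implied length was within 1% of the sum of all distinct exons, overlapping ones included, for 67.9%, and within 1% of the merged exons for 7.88%. With the lengths behind FPKM, Apoa1 (4163 CPM per kilobase) was above Apoe (2130), and Apoc1 (1906) was above Apoa2 (816).

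**Figure D5:**
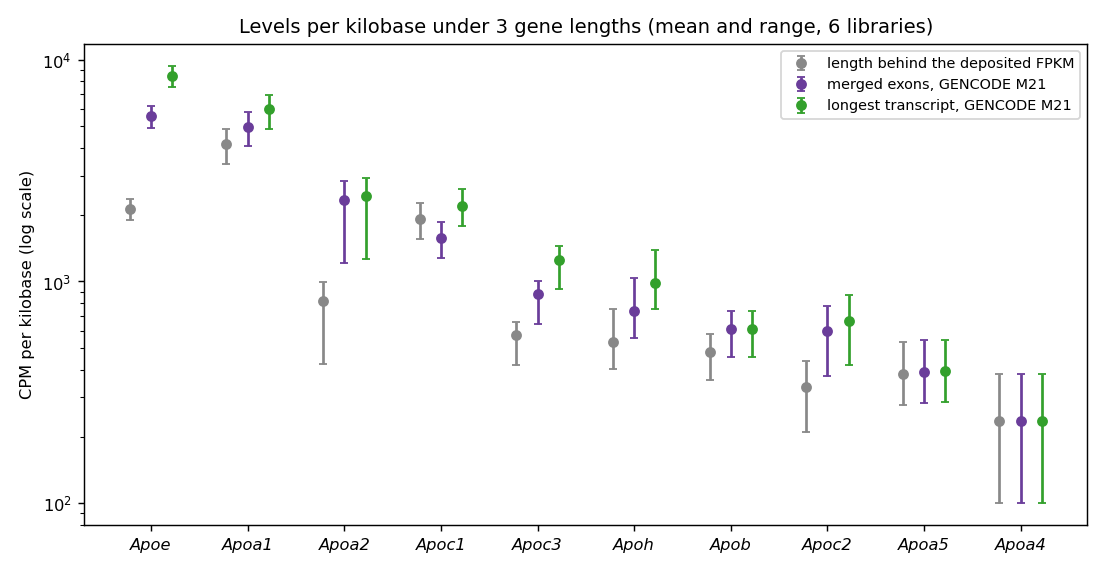
Level of each member in CPM per kilobase (y axis, log scale, mean and range over the 6 libraries) under the length implied by FPKM, merged exons and the longest transcript. Apoe moves from 2130 to 8459 CPM per kilobase, and Apoa4 stays at 235.

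The wider lipoprotein pathway was read from 5 lists. Of all genes tested, 1.98% were higher and 3.18% lower at an unadjusted p under 0.05 in edgeR's quasi-likelihood test. Groups did not overlap for 10.5% of all genes. Apart from Foxa1, Foxa3 and Hnf4a, the genes named below were picked for the smallest p of their list, so a lack of overlap is partly built into the choice. Of 9 other apolipoproteins, 8 were tested, of which 2 were higher, 6 lower and 0 had an unadjusted p under 0.05 in edgeR's quasi-likelihood test (median log2 fold change −0.31, and −0.17 with scaling by total count, against −0.01 and 0.10 over all genes). Apon was at 254 ± 42.3 CPM in FOXA2f/f and 194 ± 16.2 CPM in FOXA2H-KO (SD, n = 3), a log2 fold change of −0.39. Apof was at −0.30, Apom, an HDL protein that carries sphingosine-1-phosphate, at −0.32, and Saa1, an acute-phase apolipoprotein, at −0.52. Each of these overlapped between the groups. Without FOXA2f/f replicate 1 Saa1 was at 0.20. Of 15 genes of VLDL assembly, 6 were higher and 9 lower (median −0.08), but 8 and 7 (median 0.07) with scaling by total count. Tm6sf2, which helps load lipid onto VLDL, was at 25.3 ± 2.90 CPM in FOXA2f/f and 18.5 ± 2.38 CPM in FOXA2H-KO (SD, n = 3) without overlap, a log2 fold change of −0.45, and was the only gene of this list with an unadjusted p under 0.05. Mia2, needed for secretion of large cargo, was higher in every FOXA2H-KO library by 0.24 on the log2 scale, while P4hb, a subunit of the triglyceride transfer protein, at −0.43, and Surf4, a cargo receptor, at −0.30, overlapped. Every gene of both lists named here had an adjusted p of at least 0.836 in edgeR's quasi-likelihood test.

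Of 10 genes of HDL formation, 4 were higher and 6 lower (median −0.06), but 7 and 3 (median 0.06) with scaling by total count, and 0 had an unadjusted p under 0.05 in edgeR's quasi-likelihood test. Their summed TMM-scaled CPM was between 1207 and 1271 CPM in FOXA2H-KO and between 1301 and 1493 CPM in FOXA2f/f libraries. Scaled by total count the sums overlapped, at 1202 to 1356 CPM and 1225 to 1445 CPM. Abca1, which moves cholesterol onto ApoA-I, was at −0.34 on the log2 scale, Lipc, hepatic lipase, at −0.35, Pon1, an HDL enzyme, at −0.22 and Lipg, endothelial lipase, at 0.51, and each overlapped. Without FOXA2H-KO replicate 4 Lipg was at −0.07. Of 14 genes of lipolysis and uptake, 5 were higher and 9 lower (median −0.12), but 7 and 7 (median 0.02) with scaling by total count, and 2 in each direction had an unadjusted p under 0.05. Vldlr, a receptor for ApoE-bearing particles, was at 9.41, 10.97 and 11.25 CPM in FOXA2f/f and at 43.2, 25.7 and 31.2 CPM in FOXA2H-KO libraries. Its log2 fold change was 1.66 (standard error 0.21), with an adjusted p of 0.45 in edgeR's quasi-likelihood test and between 2.58e-07 and 0.9998 over the alternatives. Sdc1, a heparan sulfate receptor for remnants, was at −0.37 and Angptl4, an inhibitor of lipoprotein lipase, at 0.42, both without overlap. Their adjusted p-values in edgeR's quasi-likelihood test were 0.918 and 0.941.

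Of 28 regulators of lipoprotein genes, 13 were higher and 15 lower (median −0.02), but 19 and 9 (median 0.12) with scaling by total count, and Foxa2 alone had an adjusted p under 0.05. Foxa1 and Foxa3, the other FOXA factors, were at 16.6 ± 3.83 and 40.4 ± 7.40 CPM in FOXA2f/f and at 18.2 ± 1.43 and 43.2 ± 8.39 CPM in FOXA2H-KO (SD, n = 3). Hnf4a, a nuclear receptor that drives apolipoprotein genes, was at 564.1 ± 50.7 and 540 ± 42.7 CPM (SD, n = 3), and these 3 genes overlapped between the groups. Srebf1, which activates lipid synthesis, was at 302, 591 and 242 CPM in FOXA2f/f and at 161, 208 and 104 CPM in FOXA2H-KO libraries, a log2 fold change of −1.26 without overlap. Mlxipl, the glucose-sensing factor ChREBP, was at −0.85 and Prox1, a homeodomain factor, at 0.98, neither with overlap. The adjusted p was 0.771 for Srebf1 and Prox1 and 0.836 for Mlxipl in edgeR's quasi-likelihood test.

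Likeness of pattern was measured as the SD over the 6 libraries of the difference in log2 CPM between 2 genes. It is small when both go up and down together, and also when neither varies much. Among members, Apoc1 and Apoc3 were the closest pair (SD 0.12), followed by Apoc2 and Apoc3 (0.136) and Apoc1 and Apoe (0.175). The SD of Apoe alone within groups was 0.117. Genes outside the members came closer, at 0.0303 to Apoc3 and 0.0423 to Apoc1. These were the closest of 8295 genes, while the members are only 10. The values therefore cannot tell whether members are more alike than other genes. Among all 8295 genes of at least 10 CPM, those closest to Apoh were Pemt (0.0672), a methyltransferase that makes phosphatidylcholine, Plg (0.071), which encodes plasminogen, and Acsm1 (0.0733), an acyl-CoA synthetase. Those closest to Apoa4 were Mup3 (0.203), Naaladl2 (0.294) and Nat8 (0.317). Mup3 belongs to a family of near-identical major urinary protein genes, whose counts are uncertain. These are descriptions over 6 libraries that share their preparation.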

How the data were processed

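RNA-seq of poly-A RNA, in paired-end libraries, was analysed for 3 FOXA2f/f and 3 FOXA2H-KO libraries. The authors deposited for each gene a count of fragments, as whole numbers without normalization, and an FPKM value that follows from the count, the library total and 1 length per gene. The submitters' processing notes name CASAVA 1.8, TopHat2 2.1.0, HTSeq, edgeR and mm10, and the annotation behind the counts is not given in the sources used here. A table of the whole series repeats the files of the samples and was not used.

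Counts were fitted in R 4.3.3 with edgeR 4.0.16 (TMM, filterByExpr, quasi-likelihood test, no replicate block), with Benjamini-Hochberg adjustment over the 14417 genes that passed the filter. A gene was called at an adjusted p under 0.05 and a fold change of at least 2. The lowest value of a member in any library was 182 CPM at total counts of 20983455 to 28327765, so that the spread between libraries (biological coefficient of variation 25.3%) and not counting error limits precision. No replicates were near-identical. The test was checked on simulated counts of 14181 genes, where it called 89 of 100 genes changed 4-fold, 30 of 100 changed 2-fold and 13 unchanged genes. The simulation held 200 changed genes and no scaling differences between libraries, and a 2-fold change lies at the call threshold. These rates therefore do not carry over to the data.

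Alternatives were DESeq2 1.42.0, edgeR's exact test, other scalings and filters, limma 3.58.1 on log2(FPKM + 1) and log2(FPKM + 0.1) over genes with a mean FPKM of at least 1, the replicate block and each library left out. Positions are from GENCODE M21 and promoters from RefSeq. The members, gene lists and tests were chosen with earlier results of these data known. Named genes are the members, Foxa2, up to 4 genes per list with the smallest p, Foxa1, Foxa3 and Hnf4a, and the 3 genes most like the member of largest spread within groups (Apoa4) and of smallest p (Apoh). A gene that this rule gives is not reported here. Gm10680, Gm47528 and Gm44805 are named for overlap, and Alb, Alpi and Sis as markers.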

Additional observations from a re-analysis of the deposited data

How the results depend on the processing

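None of the 10 members was called in any of the 15 alternative fits, made by leaving out each of the 6 libraries or by 9 other settings, of which DESeq2 and limma also change the scaling and the genes tested. The count of called genes among all genes, 1 with edgeR's quasi-likelihood test, was 75 with DESeq2, 64 with edgeR's exact test, 2 with no filter beyond 1 count in any library, 254 with unadjusted p-values at 2-fold, and 0 with library size alone, with limma on log2(FPKM + 1) and with limma on log2(FPKM + 0.1). It was between 0 and 6 when each library was left out, 6 without FOXA2f/f replicate 2 and 0 without any other, and the cause of these differences was not tested. Deviations from the group mean correlated at −0.0688, 0.0262 and −0.226 between same-numbered libraries and at −0.188 to 0.253 between the others. With 3 libraries per group these values cannot decide whether the numbers mark pairs, and the labels do not say. With the number as a replicate block 0 genes and 0 members were called, with a median log2 fold change of the members of −0.04. Only Apoa2 and Apoh kept their sign in all 15 fits. Of the others, 6 changed sign when a library was left out and 4 under another setting, so no direction can be read for them. The lengths used for levels per kilobase were compared after seeing the data. With 3 libraries per group, standard errors of 0.21 to 0.45 on the log2 scale limit what could be seen.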
